A study of Mus musculus with 15 samples.

Results

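The clustered protocadherin genes were followed across 15 hippocampal RNA-seq libraries, each from 1 mouse. Members were all genes of the count tables whose symbol starts with Pcdha, Pcdhb or Pcdhg and which lie in the cluster on mouse chromosome 18. The rule found 58 genes of 55401, with 14 in the alpha cluster, 22 in the beta cluster and 22 in the gamma cluster. They lie between bases 36930184 and 37841873 of chromosome 18 (GRCm38). The mice were females of 18 to 20 months, either Tg2576 +/+ or their transgene-negative littermates (Tg2576 -/-, here WT). This age is from the methods of the paper, whose discussion gives a higher approximate age for the mice of its spine counts. Tg2576 mice carry human APP with the Swedish mutation under the prion promoter, a model of Alzheimer's disease. For 5 weeks they received docosahexaenoic acid (DHA, an omega-3 fatty acid) by daily gavage at 450 mg/kg or its vehicle, sesame oil. This gave 4 WT-Veh, 4 WT-DHA, 4 Tg2576-Veh and 3 Tg2576-DHA mice.

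Clustered protocadherins are cell adhesion proteins of neurons that bind like proteins on neighbouring membranes, and they are known for self-avoidance of dendrites and for neuronal survival and wiring. Each gene has its own promoter and a large variable exon that encodes the ectodomain, the transmembrane segment and the start of the cytoplasmic tail. In the alpha and gamma clusters the variable exon is spliced to constant exons that all members of that cluster use, whereas beta genes have no constant exon. A neuron uses a small, largely random choice of the alternate genes, made through promoter methylation, CTCF and cohesin. The C-type genes (Pcdhac1, Pcdhac2 and Pcdhgc3 to Pcdhgc5) are instead used by most neurons. A hippocampal library therefore gives a sum over many neurons with different choices.

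The gene structure set what could be counted. Reads touching exons of more than 1 annotated gene were dropped by the counting, so the shared constant exons of the alpha and gamma clusters gave no counts. The median gene of the alpha cluster had 46.4% of its exon bases shared with no other gene and that of the gamma cluster 54.7%. Of the 22 beta genes, 19 were wholly unshared. Counts of alpha and gamma genes hence came from their unshared bases, for most of them the variable exon. Some gamma genes had more unshared bases than their first exon holds, as Pcdhgc5 (4606 against 2622) and Pcdhgb5 (4614 against 2551). Over all mice the 3 clusters collected 19861, 66384 and 88388 reads.

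For 3 members the counts could not show a level. Pcdhga10 has no unshared base, since the antisense transcript Gm26672 covers 2613 bases and other genes share the rest, and it was at 0 reads in all 15 mice. Pcdha4 keeps 404 unshared bases, as Gm42416 shares 2410 bases with it, and reached at most 6 reads. Pcdha11, overlapped over 2486 bases by Gm10545, reached at most 2 reads in a mouse. These values say nothing about the transcription of those genes. The other 55 members passed the filter on low counts, and no count, median or test of differences between groups includes the 3 that did not. Pcdhb12 (36.5% unshared), Pcdhga11 (26.4%), Pcdhgc3 (33.1%) and Pcdhga4 (33.2%) were also measured on short stretches.

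Close sequence similarity was a further limit. In the GENCODE M21 transcripts, the share of windows of 100 bases in a member's first exon that also occur in another member's first exon had a median of 0.441% over all 58 members. It was highest for Pcdha11 (12.95%), Pcdhgb2 (10.7%) and Pcdhgb1 (9.69%), and it was 0 for all 5 C-type genes. The median was 5.45% for alternate alpha genes, 3.14% for gamma B and 0.207% for beta genes. With windows of 50 bases the share was larger, up to 23.4% for Pcdha7, 18.4% for Pcdha11 and 17.9% for Pcdhgb2. The loss depends on the read length, which was not taken into account. Reads wholly from such stretches map to several places and were not counted.

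The most abundant members per length were C-type genes. Levels between genes are compared as CPM (read counts scaled to a common library total) per kb of unshared exon, the mean ± SD over 15 mice. The SD covers the spread between mice. Genes were measured in the same libraries and were not compared mouse by mouse, so a difference below the SD does not show equal levels. Pcdhgc5 was highest at 13.1 ± 3.08, followed by Pcdhgc3 at 11.9 ± 2.34, a difference smaller than either SD. Per kb of full exon length they stood at 7.94 and 3.93, so this near tie depends on the length used. The level of Pcdhgc5 is divided by 4606 unshared bases, more than its first exon of 2622. Pcdhac2 (7.78 ± 2.61) and the alternate gamma gene Pcdhga11 (7.75 ± 1.79) came next, with means closer than either SD. Not all C-type genes were high. Pcdhgc4, the C-type gene tied to survival of interneurons, reached 2.31 ± 0.680, and Pcdhac1 reached 0.781 ± 0.321, below several alternate alpha genes.

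Within each cluster the alternate genes covered a wide range of levels per kb. The beta genes ran from Pcdhb9 (5.08 ± 1.68), Pcdhb7 (3.78 ± 0.904) and Pcdhb3 (3.49 ± 0.703) down to Pcdhb21 (0.605 ± 0.206) and Pcdhb1 (0.140 ± 0.0819). Pcdhb7 and Pcdhb3 differed by less than either SD, and Pcdhb9 lay above Pcdhb7 by less than its own SD but more than that of Pcdhb7. Among alpha genes, Pcdhac2 was followed by Pcdha12 (2.13 ± 0.577) and Pcdha10 (1.35 ± 0.500), and the lowest were Pcdha1 (0.433 ± 0.194) and Pcdha8 (0.164 ± 0.0812). In the gamma cluster Pcdhgb5 (1.16 ± 0.426) and Pcdhgb4 (0.768 ± 0.296) were lowest. Pcdhgb5 is divided by 4614 unshared bases, more than its first exon of 2551. Its low place held per kb of full exon length, but a level per kb of first exon was not computed. Pcdha8 and Pcdhb1 rested on at most 34 and 18 reads per mouse, and neither was called in any comparison at this depth. Divided by full exon length instead, Pcdhga6 took the third place of the gamma cluster from Pcdhga11.

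**Figure D1:**
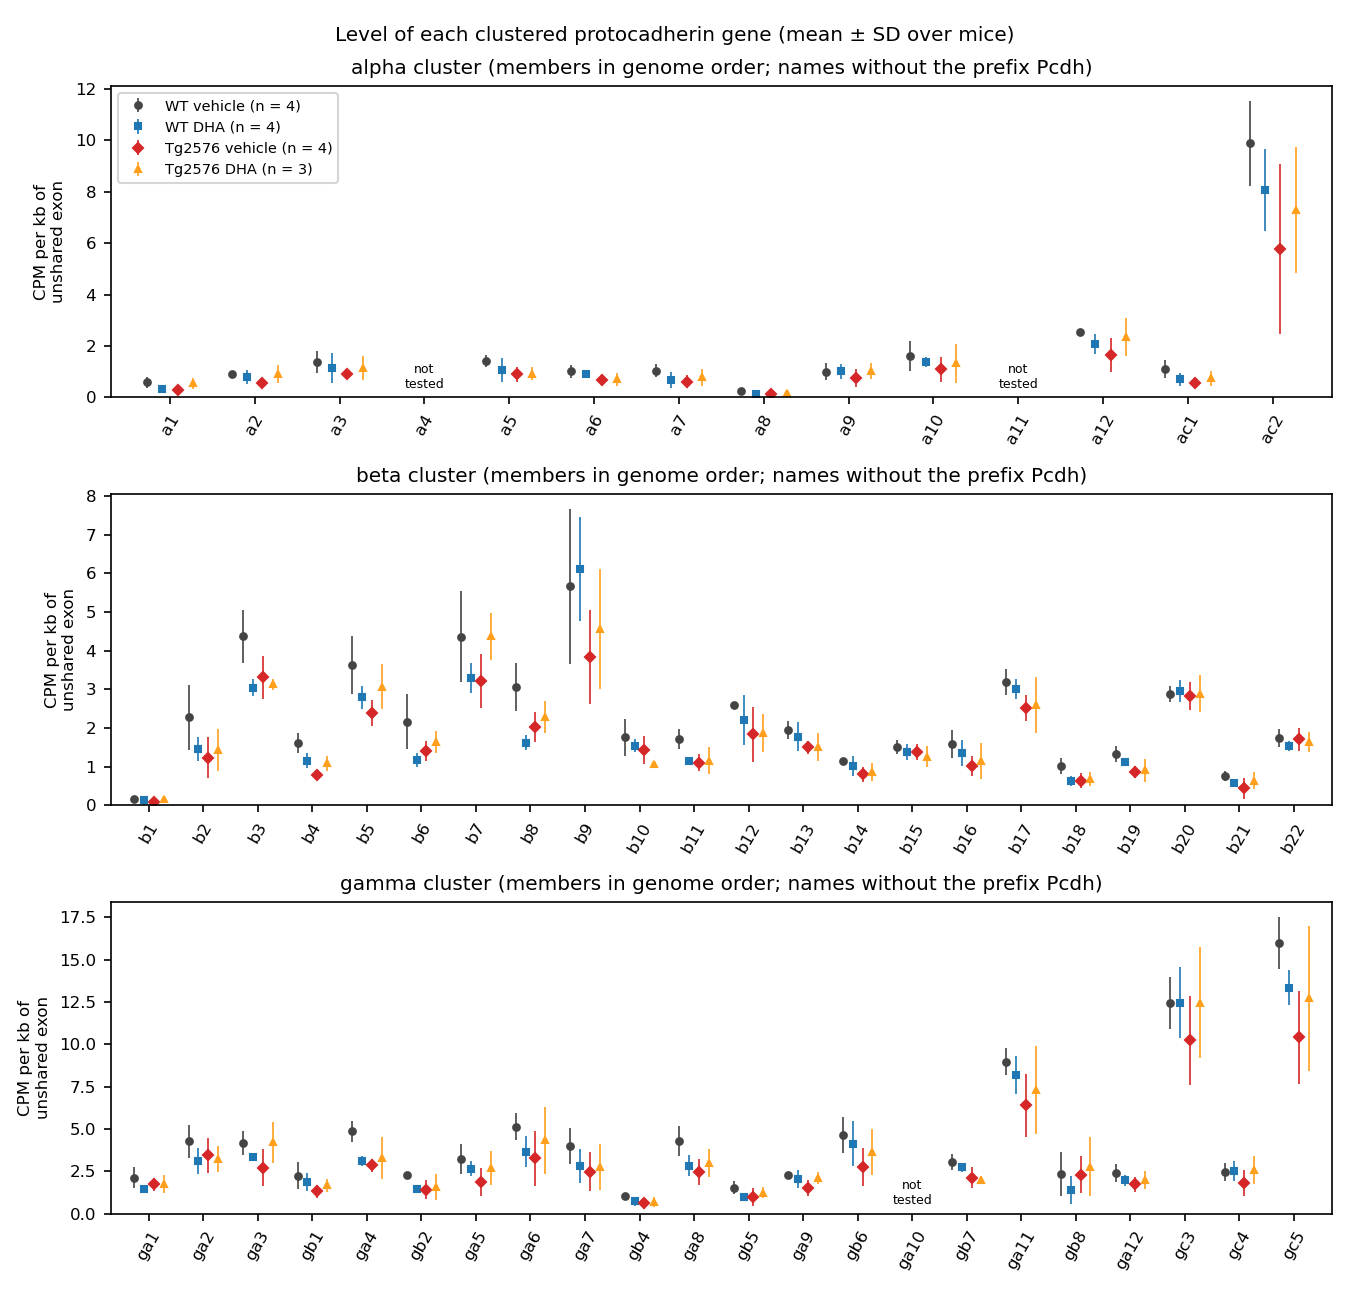
Mean ± SD of CPM per kb of unshared exon (vertical axis) for every member in genome order (horizontal axis), by group, with 4, 4, 4 and 3 mice. Pcdhac2 stands at 7.78 over all mice against 2.13 for Pcdha12, and Pcdhgc5 and Pcdhgc3 stand at 13.1 and 11.9; the 3 members without usable counts are marked as not tested.

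The C-type genes made up much of what was counted in their clusters. Pcdhac1 and Pcdhac2 together gave 52.9% ± 4.45 of alpha reads, and Pcdhgc3, Pcdhgc4 and Pcdhgc5 gave 42.6% ± 2.18 of gamma reads (SD, n = 15). Alternate genes of the gamma A type gave 40.1% ± 1.13 and those of the gamma B type 17.3% ± 1.36. By group, the C-type share of the gamma cluster was 40.9% ± 1.63 in WT-Veh, 44.7% ± 1.33 in WT-DHA, 42.3% ± 2.66 in Tg2576-Veh and 42.4% ± 1.33 in Tg2576-DHA. The WT-Veh mice spanned 39.7 to 43.3% and the WT-DHA mice 43.5 to 46.5%, without overlap, and both Tg2576 groups overlapped both. In the alpha cluster the share was widest in Tg2576-Veh, from 41.9 to 61.0%, and its group means lay between 49.98 and 55.03%.

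Members differed more between mice than most genes did. The SD of log2 CPM over the 15 mice had a median of 0.45 for the 55 members and 0.26 for all 19536 genes tested. Alpha genes had a median of 0.55, gamma genes 0.46 and beta genes 0.37. These SDs are not matched for abundance, and they include the differences between groups. The steadiest members were Pcdhb20 (0.15), Pcdhb22 (0.19) and Pcdhb15 (0.22), all beta genes. Pcdhb20 read 11.3, 10.4, 9.56 and 9.87 CPM in WT-Veh, 10.2, 12, 10.04 and 9.88 in WT-DHA, 8.86, 11.3, 9.07 and 11 in Tg2576-Veh and 8.39, 10.9 and 11.6 in Tg2576-DHA. All 4 groups overlapped for Pcdhb20, and its highest mouse was 1.43 times its lowest.

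Pcdhgb8 was the most variable member (SD 0.90), and its ranges overlapped between all 4 groups. It read 6.07, 9.96, 5.41 and 2.02 CPM in WT-Veh, 5.02, 2.5, 0.983 and 5.23 in WT-DHA, 9.59, 5.62, 3.57 and 4.02 in Tg2576-Veh and 4.61, 11.9 and 4.18 in Tg2576-DHA, a range of 12.1-fold with 19 to 403 reads per mouse. Its lowest mouse was WT-DHA replicate 3 and its highest Tg2576-DHA replicate 2. Its fitted log2 fold change was -0.76 for DHA in WT and 1.01 for genotype under DHA, and it was called in neither. These members were picked by their spread after the values were seen. The M21 annotation calls Pcdhgb8 a polymorphic pseudogene.

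The libraries matched their labelled genotypes. Totals ran from 17372864 to 46596489 reads, with a median of 25645977. App, which also collects reads of the human transgene, spanned 1572.1 to 1787.4 CPM over the 8 WT mice and 2076.5 to 2787.1 over the 7 Tg2576 mice, without overlap. The summed level of 10 neuronal markers lay between 6583.4 and 8056.6 CPM, and those of dentate gyrus, CA1 and CA3 between 224 and 348, 603 and 845, and 180.5 and 278. No marker of these lists was at 0 in any mouse. Markers of choroid plexus, a tissue beside the hippocampus, ran from 61.3 to 5814.7, and those of meninges from 22.0 to 101 CPM. The serotonergic markers, a cell type in which Pcdhac2 is the main alpha gene, summed to at most 1.81 CPM.

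Libraries also differed in how long and short genes stood to each other. A long-gene index was taken for each mouse as the median log2 deviation of the 4871 other genes with at least 6044 exon bases, minus that of the 4872 with at most 2065. It was 0.20, 0.20, -0.10 and 0.00 in WT-Veh, -0.01, 0.14, -0.10 and -0.21 in WT-DHA, 0.06, -0.01, -0.17 and -0.32 in Tg2576-Veh and -0.37, 0.21 and 0.10 in Tg2576-DHA. The lowest 2 mice were Tg2576-DHA replicate 1 and Tg2576-Veh replicate 4. Group means were 0.08, -0.05, -0.11 and -0.02 in that order. The WT-Veh and Tg2576-Veh means lay farther apart than the SD of either group (0.15 and 0.17), and their ranges overlapped.

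The protocadherin clusters followed this index over the mice, more closely in the alpha and gamma than in the beta cluster. Over 15 mice, Pearson's r between the index and the log2 CPM of the summed cluster was 0.92 for alpha, 0.70 for beta and 0.91 for gamma, and Spearman's rho was 0.94, 0.65 and 0.93. Without the 2 mice farthest from the median index, r was 0.87, 0.51 and 0.86. With the group means removed it was 0.95, 0.75 and 0.93. Both measures come from the same library, so r is given as a description.

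The relation was uneven among members. Single-member r had a median of 0.74 in the alpha, 0.44 in the beta and 0.76 in the gamma cluster. The median was 0.003 over all other genes and 0.45 over those of at least 6044 exon bases, a length most members do not reach. Among members r was highest for Pcdhga6 (0.92), Pcdhb16 (0.90) and Pcdhga12 (0.90), and lowest for Pcdhb10 (0.03), Pcdhb3 (0.05) and Pcdhb8 (0.08). Of all marker lists, the 3 markers of oligodendrocyte precursors, Pdgfra, Cspg4 and Vcan, had the highest r with the cluster sums, and they are named for that reason. Their sum spanned 82.3 to 96.8 CPM in WT-Veh, 70.5 to 91.6 in WT-DHA, 57.0 to 94.3 in Tg2576-Veh and 60.5 to 89.3 in Tg2576-DHA, and its r with the alpha, beta and gamma sums was 0.91, 0.67 and 0.91. The 4 markers of CA3 neurons came next, with r of 0.75, 0.62 and 0.71. Their sum spanned 215 to 278 CPM in WT-Veh, 210 to 256 in WT-DHA, 180.5 to 227 in Tg2576-Veh and 211 to 242 in Tg2576-DHA. For the 10 neuronal markers r was 0.55, 0.48 and 0.50. It was 0.48, 0.12 and 0.43 for subiculum and neocortex, and 0.43, 0.15 and 0.42 for CA1. Microglia had -0.44, -0.24 and -0.38, and oligodendrocytes had -0.44, 0.01 and -0.40. The part of these measures in the results below was not tested beyond the fits that carry the index.

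**Figure D2:**
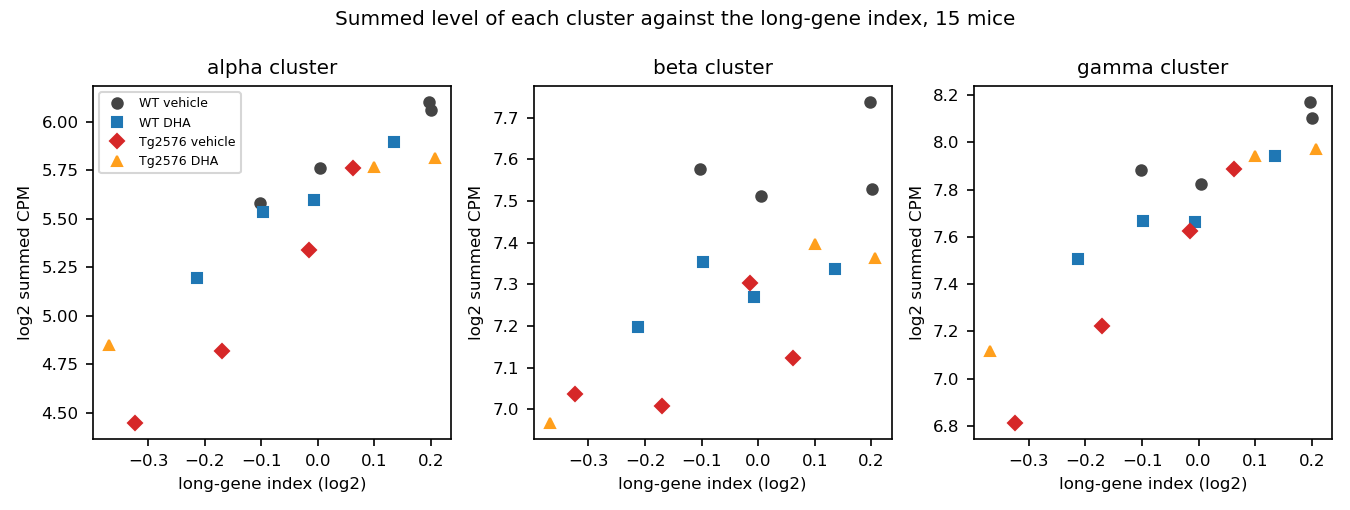
Log2 summed CPM of each cluster (vertical axis) against the long-gene index of the mouse (horizontal axis, log2), 1 point per mouse, 15 mice, marked by group. Alpha and gamma points rise with the index (r = 0.92 and 0.91), and in the beta panel the WT-Veh mice lie above the rest at like index values.

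Summed over all members, each cluster had its highest group mean in WT-Veh. The alpha sum was 66.8, 68.7, 48 and 54.2 CPM in WT-Veh, 48.4, 59.6, 46.3 and 36.7 in WT-DHA, 54.3, 40.6, 28.3 and 21.8 in Tg2576-Veh and 28.9, 56.2 and 54.6 in Tg2576-DHA. Tg2576-Veh minus WT-Veh was -0.78 on the log2 scale, with a pooled SD between mice of 0.44, and the groups overlapped. WT-DHA minus WT-Veh was -0.32 (pooled SD 0.27). With the long-gene index as a covariate these were -0.39 and -0.07. In bulk tissue, fewer neurons that use a gene and less of its RNA per neuron cannot be told apart.

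The beta sum separated WT-Veh from the other 3 groups. It was 185, 213, 191 and 183 CPM in WT-Veh, 154, 162, 164 and 147 in WT-DHA, 139, 158, 129 and 131 in Tg2576-Veh and 125, 165 and 169 in Tg2576-DHA. No mouse of another group reached the lowest WT-Veh mouse. The difference was -0.47 (pooled SD 0.12) between Tg2576-Veh and WT-Veh and -0.30 (pooled SD 0.09) between WT-DHA and WT-Veh. With the long-gene index as a covariate, added after the data were seen, these were -0.37 and -0.23.

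The gamma sum overlapped between all groups. It was 275, 288, 236 and 227 CPM in WT-Veh, 202, 246, 203 and 182 in WT-DHA, 237, 197, 149.5 and 112 in Tg2576-Veh and 139, 251 and 246 in Tg2576-DHA. Tg2576-Veh minus WT-Veh was -0.61 (pooled SD 0.35) and -0.30 with the index as a covariate. WT-DHA minus WT-Veh was -0.30 (pooled SD 0.17) and -0.10 with the index. Between Tg2576-DHA and Tg2576-Veh the alpha, beta and gamma sums differed by 0.38, 0.12 and 0.29, each less than its pooled SD of 0.56, 0.18 and 0.48. Tg2576-DHA minus WT-DHA was -0.08, -0.05 and -0.02, with pooled SDs of 0.41, 0.16 and 0.34, and all 3 turned positive (0.24, 0.09 and 0.26) without Tg2576-DHA replicate 1. The sums are values without a test.

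**Figure D3:**
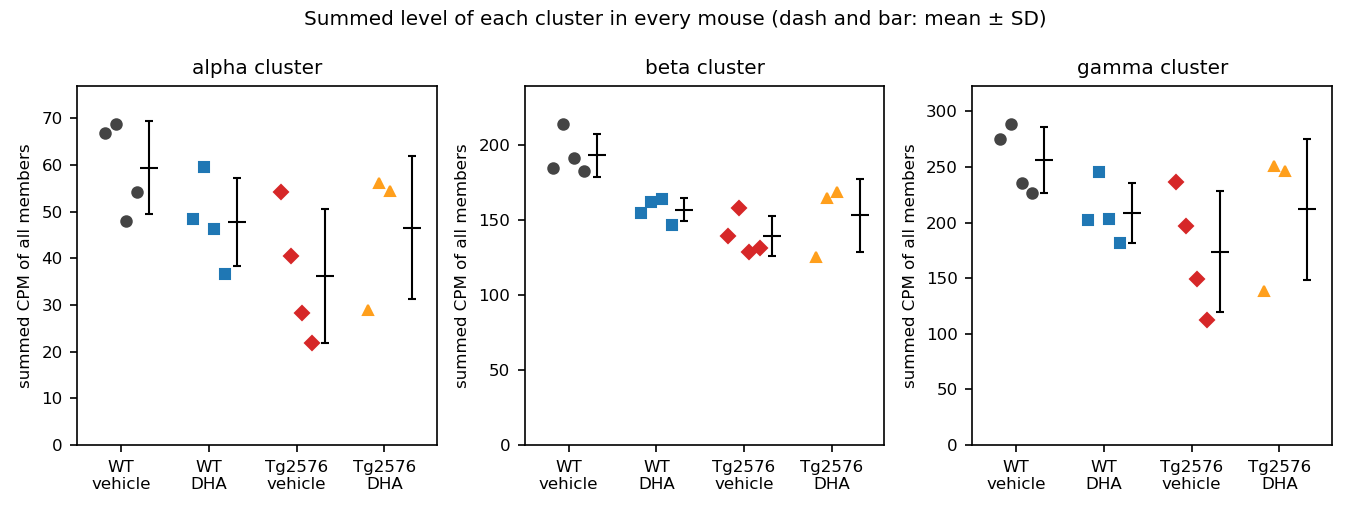
Summed CPM of all members of each cluster (vertical axis) in every mouse, by group (horizontal axis), with the group mean ± SD beside the points. In the beta panel the 4 WT-Veh mice (183 to 213 CPM) lie above all WT-DHA (147 to 164), Tg2576-Veh (129 to 158) and Tg2576-DHA mice (125 to 169).

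Under vehicle, 8 members fell in Tg2576 mice and none rose. All 55 members had a negative fitted change, with a median of -0.62, while the median over 19536 genes was 0.00 and 9761 of them were negative. At p under 0.01, edgeR's quasi-likelihood test called 8 of 55 members, against 3.09% of all genes, and 378 genes, 1.93%, in the downward direction. After Benjamini-Hochberg adjustment over all genes no member passed 0.05, the lowest adjusted p being 0.0766, while the lowest with DESeq2 was 0.000168. At p under 0.05 the count was 33, against 10.7% of all genes. The called members were 5 beta genes (Pcdhb4, Pcdhb5, Pcdhb8, Pcdhb11 and Pcdhb19), 2 gamma A genes (Pcdhga4 and Pcdhga8) and the C-type gene Pcdhgc5. No alpha gene was called, although the alpha median was -0.69, against -0.57 for beta and -0.62 for gamma.

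Pcdhb4 (ENSMUSG00000045689.3), a beta gene at bases 37307455 to 37311172, fell most. Its level was 6.14, 6.92, 4.7 and 6.26 CPM in WT-Veh and 2.78, 3.36, 2.66 and 2.8 in Tg2576-Veh, 3.3, 4.55, 4.86 and 4.56 in WT-DHA and 3.71, 3.58 and 4.84 in Tg2576-DHA. Every Tg2576-Veh mouse lay below every WT-Veh mouse, while the ranges of Tg2576-Veh and WT-DHA met at WT-DHA replicate 1. The edgeR fit gave log2 fold change -1.04 ± 0.18 (SE), p = 2.70e-05, adjusted p = 0.0766, exact permutation p = 0.0286 (two-sided), the smallest exact p that 4 against 4 mice allow.

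The other called beta genes had smaller changes. Pcdhb5 read 11.3, 16.8, 12.3 and 11.1 CPM in WT-Veh and 7.44, 9.5, 7.43 and 9.39 in Tg2576-Veh, without overlap (edgeR, log2 fold change -0.60 ± 0.16 (SE), p = 0.00162, adjusted p = 0.198, exact permutation p = 0.0286). Pcdhb11 read 6.78, 8.46, 8.68 and 6.53 and 3.58, 5.46, 5.59 and 5.0, also apart (edgeR, log2 fold change -0.63 ± 0.19 (SE), p = 0.00492, adjusted p = 0.28, exact permutation p = 0.0286). The Pcdhb19 ranges, 8.24 to 11.4 against 5.20 to 7.78 CPM, did not meet either (edgeR, log2 fold change -0.63 ± 0.20 (SE), p = 0.00525, adjusted p = 0.283, exact permutation p = 0.0286). Pcdhb8 overlapped by a single Tg2576-Veh mouse, at 9.52, 12.9, 12 and 8.24 against 6.02, 6.2, 7.05 and 9.02 (edgeR, log2 fold change -0.59 ± 0.18 (SE), p = 0.00415, adjusted p = 0.261, exact permutation p = 0.0571).

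Among gamma genes the 3 calls did not overlap between groups. Pcdhga4 read 8.87, 7.59, 7.57 and 6.47 CPM in WT-Veh and 5.17, 4.85, 4.0 and 3.98 in Tg2576-Veh (edgeR, log2 fold change -0.76 ± 0.21 (SE), p = 0.00184, adjusted p = 0.204, exact permutation p = 0.0286), counted on 1570 unshared bases. Pcdhga8 read 11.7, 7.74, 8.62 and 7.91 and 7.38, 5.27, 4.3 and 3.66 (edgeR, log2 fold change -0.81 ± 0.23 (SE), p = 0.00286, adjusted p = 0.224, exact permutation p = 0.0286). Pcdhgc5 (ENSMUSG00000102543.5), at bases 37819513 to 37841873 and the most counted member, read 75.1, 83, 66.6 and 70.01 and 59.7, 55.7, 45 and 31.4 (edgeR, log2 fold change -0.62 ± 0.20 (SE), p = 0.00685, adjusted p = 0.299, exact permutation p = 0.0286). Tg2576-Veh replicate 4 was the lowest of its group for each of these gamma genes.

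The other C-type genes had negative values that missed the threshold. Pcdhac1 read 3.77, 3.19, 1.69 and 2.65 CPM in WT-Veh and 1.99, 1.68, 1.29 and 0.894 in Tg2576-Veh (edgeR, log2 fold change -0.96 ± 0.33 (SE), p = 0.0106, adjusted p = 0.326, exact permutation p = 0.0571). Pcdhac2 read 33.3, 35.1, 25.3 and 25.9 and 31.1, 18.4, 12.2 and 8.25 (edgeR, log2 fold change -0.78 ± 0.34 (SE), p = 0.0355, adjusted p = 0.421, exact permutation p = 0.0857). The highest Tg2576-Veh mouse of Pcdhac2, replicate 1, lay among the WT-Veh mice. For Pcdhgc3 the log2 fold change was -0.28 ± 0.19 (edgeR adjusted p = 0.627) and for Pcdhgc4 -0.44 ± 0.28 (edgeR adjusted p = 0.604). The smallest differences of all members were those of Pcdhb20 (-0.03 ± 0.13), Pcdhb22 (-0.04 ± 0.15) and Pcdhgb8 (-0.04 ± 0.54).

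Read as ranges, 13 of 55 members lay wholly lower in Tg2576-Veh than in WT-Veh, against 2.98% of all genes lower and 5.16% in either direction. None lay wholly higher. These were 3 alpha genes (Pcdha2, Pcdha5 and Pcdha12), 6 beta genes (the called ones but Pcdhb8, plus Pcdhb14 and Pcdhb16) and 4 gamma genes (the called ones and Pcdhga9). The count at p under 0.01 rested on single mice, and the count over all genes, 604 in the main fit, moved with them. Without WT-Veh replicate 2 it was 3 members and 312 genes. Without Tg2576-Veh replicate 3 it was 5 and 399, and without Tg2576-Veh replicate 4 it was 4 and 400. Leaving out Tg2576-Veh replicate 1 gave 20 and 965, and Tg2576-DHA replicate 1 gave 14 and 753. With the long-gene index as a covariate 7 members and 640 genes were called, 6 of the members among the 8. The median then moved to -0.41. With an offset for gene length it was 9 members, all 8 among them, and 626 genes, with a median of -0.61.

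**Figure D4:**
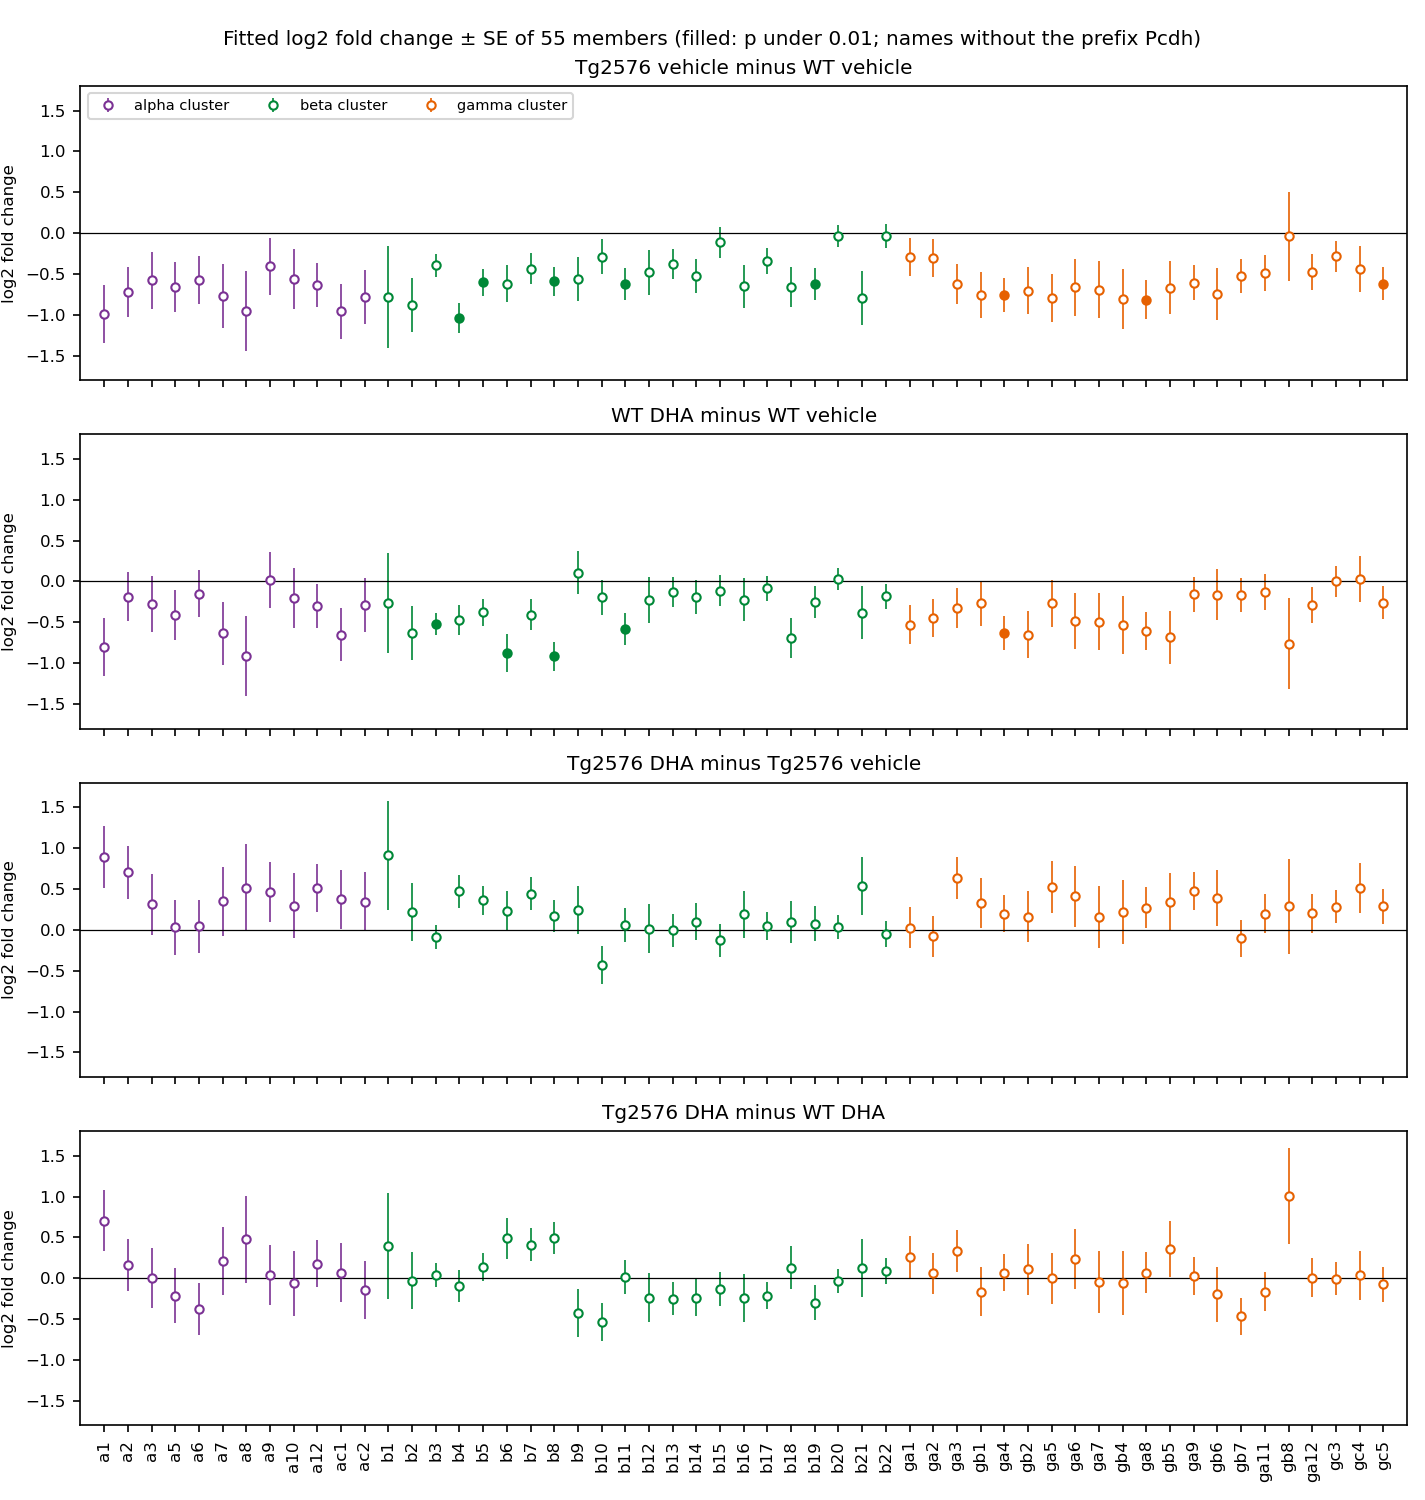
Fitted log2 fold change ± SE (vertical axis) of the 55 members tested, in genome order (horizontal axis), for 4 comparisons; filled points passed p under 0.01. All 55 points lie below 0 between Tg2576-Veh and WT-Veh and 50 between WT-DHA and WT-Veh, 48 lie above 0 between Tg2576-DHA and Tg2576-Veh, and 30 above 0 between Tg2576-DHA and WT-DHA.

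In WT mice, DHA was followed by lower levels of 5 members, 4 of them beta genes. Negative values were found for 50 of 55 members, with a median of -0.29 beside -0.01 over all genes, of which 52.7% were negative. The edgeR test called Pcdhb3, Pcdhb6, Pcdhb8, Pcdhb11 and Pcdhga4, all lower, at p under 0.01, against 1.38% of all genes and 0.599% in the downward direction. No member passed adjustment over all genes in the edgeR test (lowest adjusted p = 0.259), while the lowest adjusted p with DESeq2 was 0.00241. At p under 0.05 there were 13 members, against 5.92% of all genes. This comparison and the genotype comparison under vehicle share the 4 WT-Veh mice, so calls in both (Pcdhb8, Pcdhb11 and Pcdhga4) are not independent.

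Pcdhb8 (ENSMUSG00000045876.4), at bases 37355121 to 37358604, differed most. It read 9.52, 12.9, 12 and 8.24 CPM in WT-Veh and 6.51, 4.9, 5.48 and 5.66 in WT-DHA, with every DHA mouse below every vehicle mouse. Its edgeR fit gave log2 fold change -0.92 ± 0.18 (SE), p = 8.59e-05, adjusted p = 0.259, exact permutation p = 0.0286, the smallest exact p possible. Pcdhb3 read 13.1, 18.9, 16.3 and 18 and 11.9, 10.3, 12.2 and 11.7, also apart (edgeR, log2 fold change -0.52 ± 0.14 (SE), p = 0.00146, adjusted p = 0.533, exact permutation p = 0.0286).

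The other calls were Pcdhb6, Pcdhb11 and Pcdhga4. Pcdhb6 read 8.46, 11, 8.58 and 4.48 CPM in WT-Veh and 4.97, 3.8, 3.83 and 5.09 in WT-DHA, and WT-Veh replicate 4 lay among the DHA mice (edgeR, log2 fold change -0.87 ± 0.23 (SE), p = 0.00154, adjusted p = 0.533, exact permutation p = 0.0857). Pcdhb11 was 4.67, 5.1, 5.43 and 5.13 in WT-DHA, below all WT-Veh mice (edgeR, log2 fold change -0.58 ± 0.19 (SE), p = 0.00816, adjusted p = 0.677, exact permutation p = 0.0286). Pcdhga4 was 4.31, 4.97, 5.43 and 4.94, also below them (edgeR, log2 fold change -0.64 ± 0.21 (SE), p = 0.00687, adjusted p = 0.647, exact permutation p = 0.0286). Of the C-type genes, Pcdhgc3 (0.00 ± 0.19) and Pcdhgc4 (0.03 ± 0.28) had log2 fold changes next to 0, Pcdhgc5 had -0.26 ± 0.20 and Pcdhac2 -0.29 ± 0.33.

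Ranges of 7 members lay wholly lower in WT-DHA, against 2.23% of all genes lower and 5.02% in either direction. Without WT-Veh replicate 2, WT-DHA replicate 1 or WT-DHA replicate 4 the count of members called was 3. Of all genes 164, 305 and 178 were then called, against 270 in the main fit. With the long-gene index as a covariate 3 members were called, namely Pcdhb3, Pcdhb6 and Pcdhb8, with a median of -0.16 and 366 genes called. In a fit of only these 8 mice 10 members and 431 genes were called.

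In Tg2576 mice, no member passed the test after DHA. The fitted values were positive for 48 of 55 members, with a median of 0.24 beside 0.00 over all genes. With the long-gene index as a covariate the median was 0.11, with 36 positive and 19 negative. The edgeR test at p under 0.01 called 0 members and 0.353% of all genes, with 5 members at p under 0.05, against 3.16% of all genes, and 0 under DESeq2 and limma-voom at 0.01. The lowest p belonged to Pcdhga3 (log2 fold change 0.63 ± 0.26 (SE), p = 0.0259, adjusted p = 0.999, exact permutation p = 0.229), at 9.48, 9.57, 5.37 and 3.86 CPM in Tg2576-Veh and 8.67, 14.5 and 9.64 in Tg2576-DHA. Pcdhb4 (log2 fold change 0.47 ± 0.20 (SE), p = 0.0292, adjusted p = 0.999, exact permutation p = 0.0571) was the only member whose ranges did not meet, against 3.21% of all genes. Pcdha1 read 0.454, 0.97, 0.559 and 0.894 and 0.72, 1.77 and 1.59 CPM (log2 fold change 0.90 ± 0.38 (SE), p = 0.030, adjusted p = 0.999, exact permutation p = 0.171).

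Tg2576-DHA replicate 1 lay apart from the other 2 Tg2576-DHA mice. Its alpha and gamma sums were 28.9 and 139 CPM, against 54.6 or more and 246 or more in the others, and its long-gene index was the lowest of all mice. Without it the median in Tg2576 mice was 0.49 and 3 members were called, with 312 of all genes, against 69 in the main fit. Without Tg2576-Veh replicate 1 it was 0.41 and 2 members (122 genes), and without Tg2576-Veh replicate 2 it was 0.30 and 1 member (250 genes). Without both mice of lowest index it was 0.36 and 3 members (148 genes). Other mice lowered the median with 0 calls: it was 0.09 (38 members positive) without Tg2576-DHA replicate 3, 0.16 (35) without Tg2576-DHA replicate 2, 0.12 (40) without Tg2576-Veh replicate 4 and 0.16 (46) without Tg2576-Veh replicate 3. With 3 against 4 mice the exact permutation test cannot go below p = 0.0571.

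Between Tg2576-DHA and WT-DHA no member passed the test. The median was 0.01, with 30 positive and 25 negative values, and the edgeR test called 0 members at p under 0.01, against 1.75% of all genes. At p under 0.05 it called 2, against 6.86% of all genes, and DESeq2 and limma-voom called 0 at 0.01. The lowest p were those of Pcdhb8 (log2 fold change 0.50 ± 0.19 (SE), p = 0.0196, adjusted p = 0.651, exact permutation p = 0.0571), Pcdhb10 (log2 fold change -0.53 ± 0.24 (SE), p = 0.0374, adjusted p = 0.702, exact permutation p = 0.0571) and Pcdhgb7 (log2 fold change -0.46 ± 0.22 (SE), p = 0.0543, adjusted p = 0.732, exact permutation p = 0.0571). Pcdhb8 was 7.92, 6.56 and 9.41 CPM in Tg2576-DHA, above all WT-DHA mice. Pcdhb10 was 2.84, 3.25 and 3.06 CPM in Tg2576-DHA and 4.67, 4.94, 4.24 and 3.79 in WT-DHA, and Pcdhgb7 was 3.2, 4.08 and 3.52 and 5.06, 5.13, 5.43 and 4.27, both without overlap. With Pcdhb7, higher in Tg2576-DHA, 4 members did not overlap between these groups, against 8.56% of all genes. The sign of the median turned with the mice included. It was 0.25 without Tg2576-DHA replicate 1, -0.07 with 1 call without Tg2576-DHA replicate 2, -0.13 without Tg2576-DHA replicate 3 and -0.05 without WT-DHA replicate 4 or with the long-gene index as a covariate.

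The difference between the DHA effects in the 2 genotypes was tested as an interaction. It passed p under 0.01 for 6 members, all positive, against 0.829% of all genes and 0.445% in the positive direction. The members were Pcdha1 and the neighbouring beta genes Pcdhb4, Pcdhb5, Pcdhb6, Pcdhb7 and Pcdhb8. The median was 0.64 over 55 members, 52 of them positive, and 0.00 over all genes. With the long-gene index as a covariate it was 0.25, with 43 positive and 12 negative. No adjusted p was below 0.845. The 4 groups enter this contrast together, so it is not independent of the comparisons above.

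For Pcdhb8 the DHA effect was -0.92 ± 0.18 in WT and 0.17 ± 0.19 in Tg2576 mice on the log2 scale, an interaction of 1.08 ± 0.26. Pcdhb4 had -0.47 ± 0.18 and 0.47 ± 0.20, an interaction of 0.95 ± 0.27. Pcdhb6 had -0.87 ± 0.23 and 0.23 ± 0.25, an interaction of 1.11 ± 0.34. Of these only the WT values of Pcdhb6 and Pcdhb8 passed the test on their own.

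Pcdhb7 read 12.3, 20.1, 17.3 and 11.4 CPM in WT-Veh, 12.7, 9.74, 11.2 and 12.4 in WT-DHA, 13.4, 11, 7.99 and 12.8 in Tg2576-Veh and 15.1, 17.6 and 13.3 in Tg2576-DHA, an interaction of 0.85 ± 0.27. Pcdhb5 had an interaction of 0.74 ± 0.24. Pcdha1 had the largest, 1.70 ± 0.52, on only 8 to 65 reads per mouse, with 1.4, 2.13, 0.845 and 1.5 CPM in WT-Veh and 0.924, 0.812, 0.879 and 0.72 in WT-DHA. The count of members called fell to 2 without WT-Veh replicate 2, Tg2576-DHA replicate 2 or Tg2576-DHA replicate 3. Of all genes 109, 129 and 95 were then called, against 162 in the main fit. The member count was 3 without WT-DHA replicate 3 (145 genes) or Tg2576-Veh replicate 3 (137 genes). It was 10 without Tg2576-Veh replicate 1 (247 genes) and 11 without Tg2576-DHA replicate 1 (527 genes). With the long-gene index as a covariate it was 2 (Pcdhb4 and Pcdhb8), beside 159 genes.

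**Figure D5:**
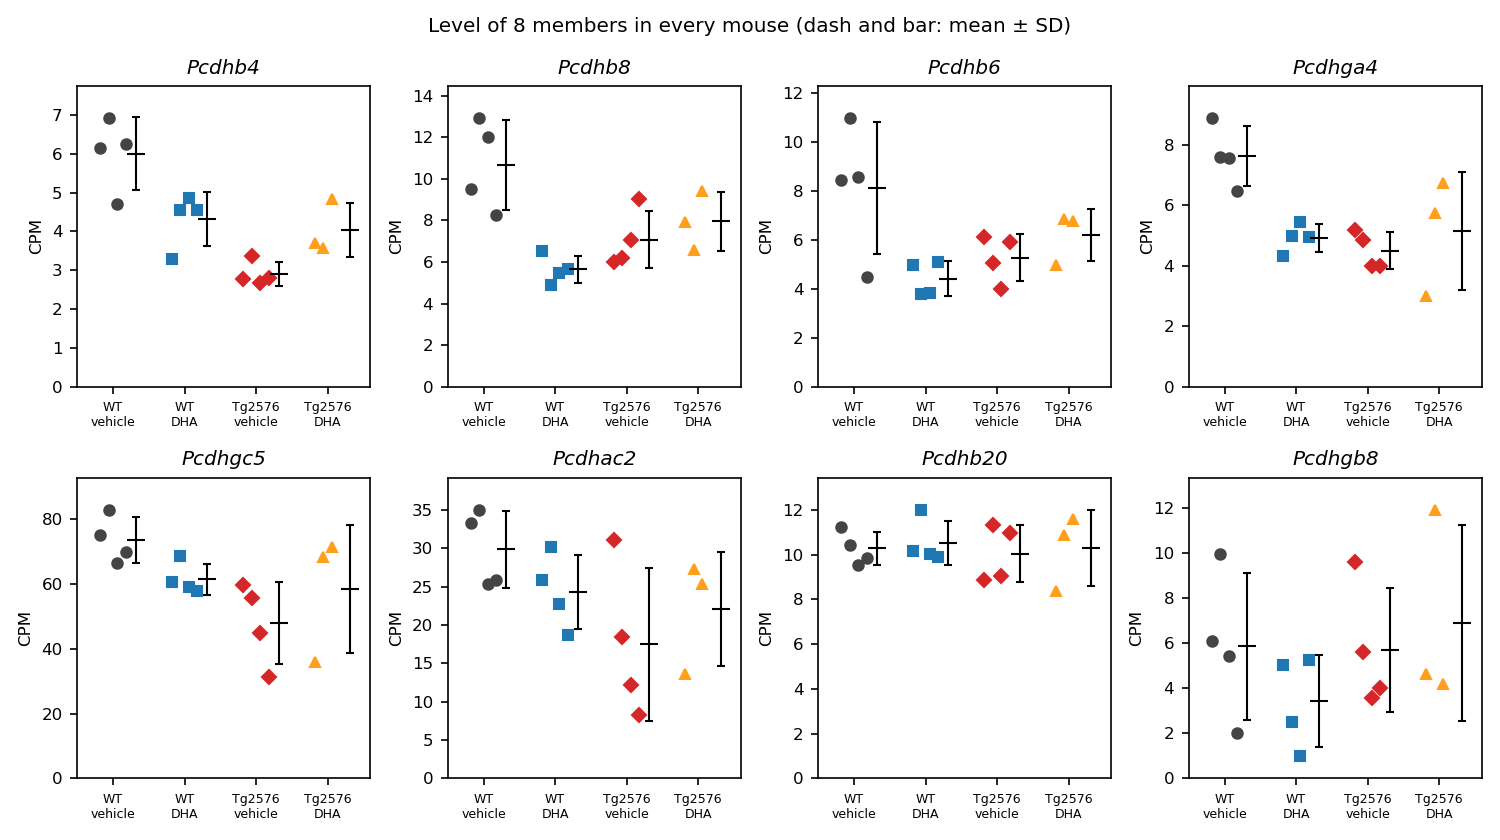
CPM (vertical axis) of 8 members in every mouse by group (horizontal axis), with the group mean ± SD beside the points. Pcdhb4 separates WT-Veh from Tg2576-Veh and Pcdhb8 separates WT-Veh from WT-DHA. Pcdhac2 and Pcdhgc5 spread widely within both Tg2576 groups. Pcdhb20 varies 1.43-fold over all mice and Pcdhgb8 12.1-fold, with ranges that overlap between all groups.

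Protocadherins outside the cluster, the delta protocadherins, are encoded by separate genes and also mediate adhesion between neurons. All 10 were tested. Under vehicle 2 fell in Tg2576 mice and none rose, against 3.09% of all genes called and 1.93% called lower. The median was -0.36, beside 0.00 over all genes, with 9 negative values. Pcdh20 spanned 69.4 to 117 CPM in WT-Veh and 54.3 to 68.3 in Tg2576-Veh (edgeR log2 fold change -0.61 ± 0.16, adjusted p = 0.193). Pcdh1, the most abundant at a mean of 445 CPM, spanned 438 to 617 and 346 to 421 CPM (edgeR -0.40 ± 0.11, adjusted p = 0.207). Pcdh20 also had an interaction of 0.67 ± 0.23 (edgeR adjusted p = 0.845), which was lost without 12 of the 15 mice in turn. The interaction was called for 0.829% of all genes. None of the 10 was called in the other comparisons, against 0.353 to 1.75% of all genes. The medians there were -0.16 for DHA in WT, 0.24 for DHA in Tg2576 and 0.10 for genotype under DHA. Those over all genes were -0.01, 0.00 and 0.00. Pcdh10, the second most abundant, was not called.

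CTCF, cohesin and silencing factors shape promoter choice in the cluster. Of 20 such architectural and silencing genes, 2 fell in Tg2576 mice under vehicle, against 1.93% of all genes called lower. None was called elsewhere, against 0.353 to 1.75% of all genes. The median under vehicle was -0.08, beside 0.00 over all genes. The genes called were Smc1a, a cohesin subunit (88.1 ± 2.91 against 75.3 ± 5.70 CPM, edgeR -0.22 ± 0.07, adjusted p = 0.302), and Pds5a, a cohesin regulator (56.0 ± 4.72 against 46.4 ± 2.31, edgeR -0.27 ± 0.09, adjusted p = 0.322; SD, n = 4). Smc1a lost its call without 8 and Pds5a without 13 of the 15 mice in turn, and both lost it with the offset for gene length. Trim28, a silencing co-factor at 172 CPM, was not called.

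Of 16 intracellular partners and signalling genes, which link the tails to kinases and to the actin-regulating WAVE complex, 1 fell under vehicle. Of all genes 1.93% were called lower there, and 1 call among 16 genes is too few to set against that share. Cyfip1, a WAVE complex subunit, was 140.02 ± 16.5 CPM in WT-Veh and 105 ± 15.2 in Tg2576-Veh (edgeR -0.42 ± 0.11, adjusted p = 0.198; SD, n = 4). The list's median was -0.11, and its most abundant genes, Cyfip2 (1053.5 CPM) and Ptk2b (977 CPM, a kinase bound by protocadherin tails), were not called. None of the 6 genes of protocadherin cleavage, among them the sheddase Adam10 (63.7 CPM), and none of 4 synaptic partners, among them Nlgn2 (322 CPM), was called in any of the 5 comparisons. With 0.353 to 3.09% of all genes called per comparison, lists this short would seldom hold a call. Medians of these 2 lists under vehicle were -0.04 and -0.06, beside 0.00 over all genes.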

How the data were processed

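Polyadenylated hippocampal RNA from 15 mice was sequenced. Per the labels and file headers, the authors mapped reads to GRCm38 with STAR 2.6.1c and deposited raw counts of reads per gene from featureCounts 1.6.0 (exons of GENCODE M25, grouped by gene), with default handling: reads that overlap several genes or map to several places were dropped, and strand was ignored. Because strand was ignored, antisense reads cannot be told apart in these counts. The sources also name different library kits (SMARTER in the labels, a TruSeq stranded kit in the paper). Symbols came from a reference table of Ensembl IDs (55141 of 55401 genes matched); it gives the symbol Pcdha11 to 2 genes, of which the one at the RefSeq position of Pcdha10 (starts 117 bases apart) was named so.

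Counts were analysed in R 4.3.3 with edgeR 4.0.16 (filterByExpr, TMM factors 0.961 to 1.03, robust quasi-likelihood F test, 1 coefficient per group, all 15 mice; 19536 genes tested). A gene was called at unadjusted p under 0.01, the cut-off used in the study; Benjamini-Hochberg adjusted p-values cover all genes tested. Log2 CPM for the exact tests used a prior count of 2 and scipy 1.17.1. DESeq2 1.42.0 and limma 3.58.1 were alternatives. Unshared exon bases were computed from the deposited exon coordinates; the spread of a rate per kb covers mice only. Scripts were tested on simulated data. Total counts of 17372864 to 46596489 set the precision.

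Named members were the C-type genes, the 3 highest and 2 lowest per kb of each cluster, members with p under 0.01 (or the 3 lowest p) and members under overlapping genes; of other lists, genes with p under 0.01 and the 2 most abundant, of which some are not reported here. The members and lists were chosen with earlier results of these data known. Nothing says that the mice of a group came from separate litters or cages, so p-values measure the spread between these mice. Each of the 5 comparisons shares mice with others.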

Additional observations from a re-analysis of the deposited data

Results flagged for a closer look

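The effect of DHA differed between WT and Tg2576 mice by the interaction test (edgeR, p under 0.01) for 6 members. The interaction on the log2 scale was 1.08 for Pcdhb8, 0.95 for Pcdhb4, 1.70 for Pcdha1, 1.11 for Pcdhb6, 0.74 for Pcdhb5 and 0.85 for Pcdhb7. In each the fitted DHA effect was negative in WT and positive in Tg2576 mice, and no adjusted p was below 0.845. Within groups of 4 mice, 17 named members and the 3 cluster sums, 60 groups in all, gave no mouse far enough from the others to pass Dixon's criterion at 95%, which chance passes in about 1 group of 20.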

How the results depend on the processing

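No called member changed direction under any alternative, but single calls were lost. Of the 15 fits that leave out 1 mouse, 8 lost Pcdhb11 for DHA in WT and 8 lost Pcdhb7 for the interaction. Pcdhb5 lost its interaction call in 7. Pcdhgc5 under vehicle, Pcdhga4 for DHA in WT and Pcdhb6 for the interaction lost theirs in 6. Pcdhb4 and Pcdhga4 under vehicle, Pcdhb3, Pcdhb6 and Pcdhb8 for DHA in WT and Pcdhb8 for the interaction kept theirs in all. The other calls were lost in 1 to 5. Counts of members called are given with the number of all genes called in the same fit in brackets. Under vehicle the count between genotypes was 8 (604). It became 14 with DESeq2 (825, lowest adjusted p 0.000168), 14 with limma-voom (612) and 3 to 20 with 1 mouse left out (312 to 965). For DHA in WT it was 5 (270), and 10 in a fit of only the 2 groups (431). It was 3 with the long-gene index as a covariate (366) and 8 without the 2 mice of lowest index (405). With 1 mouse left out it was 3 to 6 (156 to 331). For DHA in Tg2576 it was 0 (69), 3 without those 2 mice (148) and 0 to 3 with 1 mouse left out (53 to 312). For genotype under DHA it was 0 to 1 with 1 mouse left out (190 to 460). For the interaction it was 6 (162), and 3 with limma-voom (155), 2 with the index (159) and 11 without those 2 mice (330). With 1 mouse left out it was 2 to 11 (87 to 527). The index, the length offset and the removal of 2 mice were chosen after seeing the data; the cause of each move was not tested. Of 146 alternative values of the cluster sums 145 moved by less than the pooled SD between mice. That SD is wide beside many of the differences. The alpha sum between genotypes under vehicle, -0.78 and -0.39 with the index, counted as unmoved. So did the sign changes of genotype under DHA without Tg2576-DHA replicate 1. Only the gamma sum for DHA in WT moved further, to -0.10 with the index. Per kb of full exon length, the medians of the alpha and gamma clusters were 0.404 and 1.39 CPM, against 0.890 and 2.59 per unshared kb, by construction.

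Replicate numbers are shared between groups in the titles, and deviations of same-numbered mice from their group means correlated at -0.24 to 0.21. Weak correlation cannot exclude a shared litter, cage or processing day, and the titles do not say what the numbers mean. With a replicate block 13 members (661 of all genes) were called between genotypes under vehicle, all 8 among them. The count was 6 (311 genes) for DHA in WT, 4 (116 genes) for the interaction and 0 in the other comparisons. Depth limits Pcdha8 and Pcdhb1 most.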
